A study of Sorghum bicolor with 12 samples.

Results

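The 7 transcripts described here encode enzymes and small electron carriers of the antioxidant system of sorghum: L-ascorbate peroxidase (Sb06g001970.1), dehydroascorbate reductase 2 (Sb09g001690.1), L-ascorbate oxidase (Sb10g022440.1), thioredoxin peroxidase (Sb02g040650.1), glutaredoxin (Sb08g017090.1), cytochrome b5 isoform E (Sb04g033350.1) and ferredoxin-6 (Sb03g040610.1). They are 7 of the 27989 transcripts listed in each of the 4 deposited tables. Their names are those of the study's table of pathway genes. They were chosen by identifier from that table, which was built on the DS to WW ratio of these same libraries. The drought ratios below are therefore a description and carry no test.

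RNA from 12 libraries of Sorghum bicolor was sequenced, 3 biological replicates for each of 4 groups. The drought-sensitive genotype IS20351 and the drought-tolerant genotype IS22330 were each grown in pots, 1 plant per pot. Well-watered (WW) plants were kept near a fraction of transpirable soil water (FTSW) of 0.7. The study reports a higher WW value for IS22330 than for IS20351. Drought-stressed (DS) plants were brought to 0.2 FTSW and held there for 9 days before harvest. Plants of all groups were harvested 42 days after emergence. The labels give leaf as the tissue, while the extraction protocol speaks of the leaf meristem, and each genotype is represented by a single line in a single dry-down experiment.

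Plants detoxify hydrogen peroxide largely through ascorbate and thiols. Ascorbate peroxidase spends ascorbate to reduce the peroxide, and dehydroascorbate reductase rebuilds ascorbate from its oxidised form at the expense of glutathione, whereas ascorbate oxidase oxidises ascorbate in the cell wall. Thioredoxin peroxidases (peroxiredoxins) and glutaredoxins work through cysteine thiols, the first on peroxides and the second on protein disulfides. Ferredoxins are iron-sulfur proteins and cytochromes b5 are haem proteins, and both pass single electrons to other enzymes, ferredoxin mainly in plastids and cytochrome b5 mainly at the endoplasmic reticulum membrane.

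The deposited tables hold the mean over 3 libraries of the unique reads and of the reads per kilobase of transcript scaled to mapped reads (RPKM), from which the reads of each library were solved. Libraries held 26398759 to 28680141 reads on transcripts. They carry no replicate number, so letters a to c follow the total from low to high, and a letter does not pair libraries of different groups. As leaf markers, 5 transcripts of the study's table were taken, 4 chlorophyll a-b binding proteins and a RuBisCO small chain. These markers had reads in every library (5 of 5). Their summed level was 3431 to 4029 RPKM in IS20351 WW, 589 to 993 in IS20351 DS and 1232 to 2346 in IS22330 WW libraries. It was 377 and 429.8 RPKM in DS libraries a and b of IS22330 but 2592 in DS library c, so library c stood with the WW libraries. A filter kept 19021 transcripts that reached 1 RPKM in 3 or more libraries. Over these, Pearson's r of log2(RPKM + 0.1) between library c and the 2 other DS libraries of IS22330 was 0.836 and 0.854, and between library c and the 3 WW libraries of that genotype 0.909 to 0.924. Values that library c decides are given with and without it. These 5 are a part of the photosynthetic transcripts of the study's table. The study reports some photosystem II subunits, not summed here, as raised by drought in both genotypes. The leaf markers come from the table built on the DS to WW ratio of these same libraries. Their change with water treatment is therefore not independent evidence. They also moved with library c, and their part in the results below was not tested. In bulk RNA, fewer cells of a type and less RNA per cell cannot be told apart.

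All 7 transcripts passed the filter. Thioredoxin peroxidase passed through DS libraries alone, with 5 DS and 0 WW libraries at 1 RPKM or above, and glutaredoxin had 6 WW and 1 DS library at that level. L-ascorbate oxidase and ferredoxin-6 each had 5 DS and 2 WW libraries there.

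**Figure D1:**
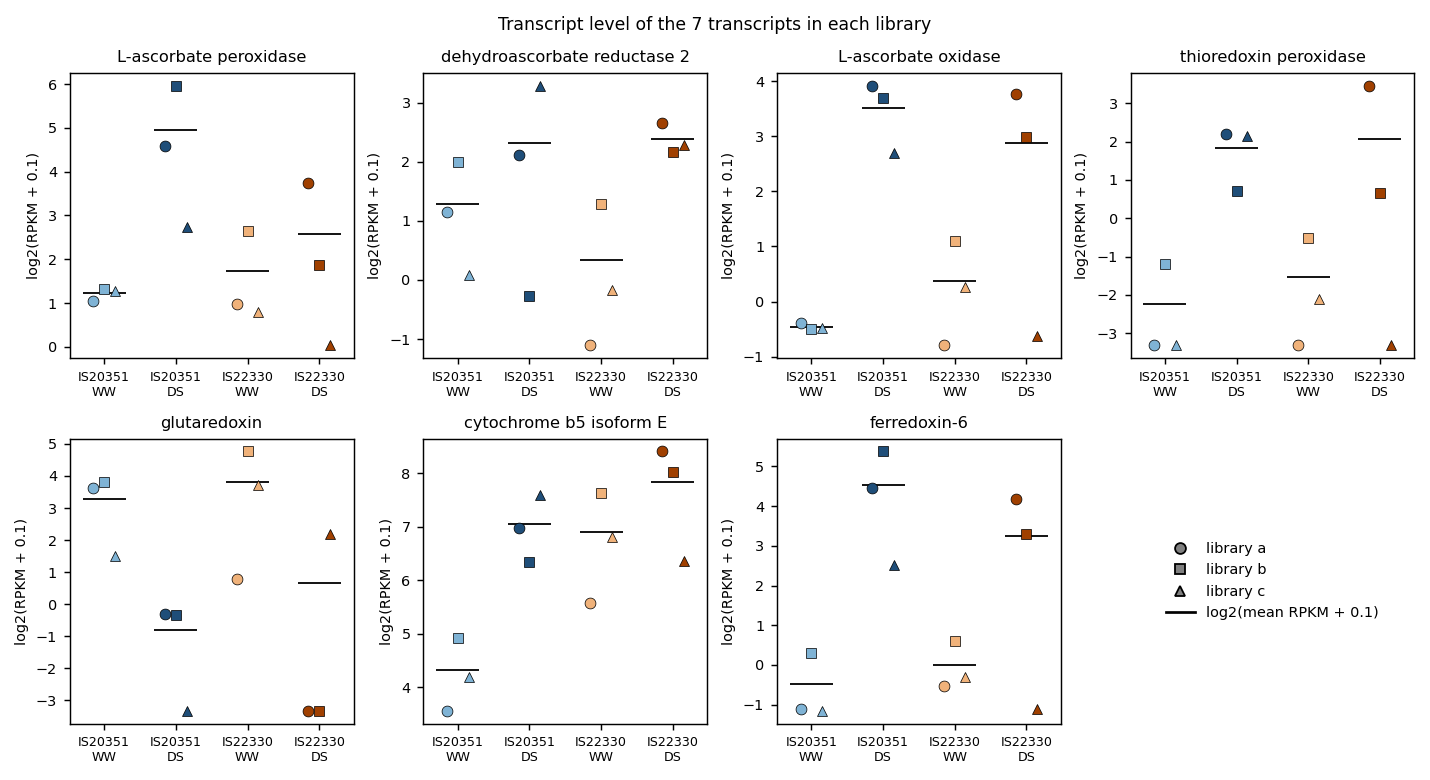
Level of each of the 7 transcripts, as log2(RPKM + 0.1), in the 12 libraries, by genotype and water treatment. Symbols are libraries a to c and lines are the means of 3 libraries. Glutaredoxin alone has its lowest values in DS libraries of both genotypes. Among DS libraries of IS22330, the triangle (library c) is the lowest in 5 panels, and the highest in the panel of glutaredoxin.

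L-ascorbate peroxidase, which uses ascorbate to reduce hydrogen peroxide, was higher in DS than in WW plants of IS20351, while the libraries of IS22330 overlapped. IS20351 WW libraries a to c held 64, 81 and 78 reads, or 1.97, 2.42 and 2.31 RPKM. The IS20351 DS libraries held 750, 1980 and 213 reads, or 24.1, 61.7 and 6.54 RPKM. All 3 DS libraries lay above all 3 WW libraries, yet the highest DS library was far from the lowest, and the WW libraries were close to each other (SD 0.235 around a mean of 2.23 RPKM, n = 3). The log2 ratio of DS to WW in the edgeR fit was 3.60 (SE 0.98).

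In IS22330 the same transcript was at 1.86, 6.21 and 1.65 RPKM in WW libraries a to c. The DS libraries were at 13.2, 3.58 and 0.925 RPKM. The groups overlapped: DS library b lay below WW library b, and DS library c below all WW libraries. The log2 ratio was 0.84 (SE 0.89), 1.33 (SE 0.84) without DS library c and -0.60 without DS library a, so its direction rested on library a.

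Dehydroascorbate reductase 2, which restores ascorbate, differed from the other transcripts in that IS22330 gave the clearer separation. It held 8, 53 and 18 reads (0.364, 2.33 and 0.791 RPKM) in IS22330 WW libraries a to c. Its DS libraries held 137, 97 and 105 reads (6.21, 4.39 and 4.75 RPKM). All DS libraries lay above all WW libraries, and library c, which stood with the WW libraries for the leaf markers, was here between DS libraries a and b. Its log2 ratio was 2.15 (SE 0.92) and 2.11 (SE 1.02) without library c.

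In IS20351 dehydroascorbate reductase 2 was at 2.12, 3.90 and 0.954 RPKM in WW libraries a to c. It was at 4.24, 0.732 and 9.59 RPKM in the DS libraries. DS library b was the lowest of the 6 and DS library c the highest, and the groups overlapped. The log2 ratio of 1.05 (SE 0.89) became -0.04 without DS library c.

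L-ascorbate oxidase, which oxidises ascorbate in the cell wall, had the tightest WW values of the 7 in IS20351. They were 0.662, 0.607 and 0.618 RPKM from 35, 33 and 34 reads in libraries a to c. The DS libraries were at 14.9, 12.9 and 6.35 RPKM from 754, 671 and 336 reads. No DS library came near the WW libraries, and the log2 ratio was 4.04 (SE 0.90).

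In IS22330 L-ascorbate oxidase was at 0.477, 2.03 and 1.11 RPKM in WW libraries a to c. The DS libraries were at 13.5, 7.79 and 0.550 RPKM. DS libraries a and b were above all WW libraries, at levels within the range of IS20351 DS plants, and library c lay between WW libraries a and c. Its log2 ratio was 2.54 (SE 0.84) and 3.08 (SE 0.55) without library c.

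Thioredoxin peroxidase, a thiol enzyme that reduces peroxides, was the least abundant of the 7 in WW plants. In IS20351 WW libraries a to c it held 0, 10 and 0 reads, and a count of 0 allows up to 0.103 RPKM in library a and 0.0988 in library c. In DS plants the libraries held 125, 44 and 126 reads (4.47, 1.53 and 4.31 RPKM). All DS libraries lay above all WW libraries. DS exceeded WW by a log2 ratio of 4.84 (SE 1.91), and its size depends on the 10 reads of WW library b, without which both remaining WW libraries are at 0.

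In IS22330 thioredoxin peroxidase held 0, 18 and 4 reads in WW libraries a to c, where the count of 0 allows up to 0.104 RPKM. In DS libraries the reads were 314, 43 and 0 reads (10.8, 1.48 and 0 RPKM, the last with a limit of 0.103). Library a alone carried most of the DS mean of 4.10 RPKM (SD 5.86, n = 3), and library c was at the floor with WW library a. This gave a log2 ratio of 4.01 (SE 1.79), 4.59 (SE 1.46) without library c and 1.42 without library a.

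Glutaredoxin, which reduces disulfides with glutathione, went the other way. It held 108, 126 and 25 reads (12.3, 13.97 and 2.74 RPKM) in IS20351 WW libraries a to c. DS libraries of this genotype held 6, 6 and 0 reads (0.715, 0.694 and 0 RPKM, the last with a limit of 0.342). All DS libraries lay below all WW libraries, and the log2 ratio was -4.46 (SE 1.72).

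In IS22330 glutaredoxin held 14, 243 and 118 reads (1.61, 27.04 and 13.1 RPKM) in WW libraries a to c. The DS libraries held 0, 0 and 39 reads, where the counts of 0 allow up to 0.344 RPKM each and library c was at 4.46 RPKM. With library c the groups overlapped and the log2 ratio was -3.04 (SE 1.56). Without it, taking the limit of 3 reads per library, the DS level was at least 40.5-fold below the WW mean of 13.9 RPKM. Against the lowest WW library, at 1.61 RPKM, it was at least 4.68-fold lower. This transcript is the shortest of the 7, at 318 bases, and the study names further glutaredoxins under nearby identifiers. Any reads matching several copies would be missing from its count of unique reads, which was not tested.

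Cytochrome b5 isoform E, an electron carrier of membrane-bound desaturation and hydroxylation, was the most abundant of the 7 per length in 11 of the 12 libraries, glutaredoxin being above it in IS20351 WW library a. In IS20351 it was at 11.7, 30.1 and 18.2 RPKM in WW libraries a to c. It was at 126, 80.6 and 193 RPKM in the DS libraries. All DS libraries lay above all WW libraries, with a log2 ratio of 2.68 (SE 0.64).

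In IS22330 cytochrome b5 was at 47.8, 198 and 112 RPKM in WW libraries a to c. The DS libraries were at 339.8, 261 and 82.4 RPKM. Libraries a and b exceeded all WW libraries, library c lay between WW libraries a and c, and the whole range of the WW libraries was above that of the WW libraries of IS20351. The log2 ratio of DS to WW was 0.90 (SE 0.60) and 1.26 (SE 0.60) without library c.

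Ferredoxin-6, an iron-sulfur electron carrier, was at low counts in WW plants of both genotypes. In IS20351 it held 5, 16 and 5 reads (0.364, 1.13 and 0.350 RPKM) in WW libraries a to c. The DS libraries held 286, 560 and 77 reads (21.8, 41.4 and 5.60 RPKM). All DS libraries lay above all WW libraries and differed among themselves in the same order as those of L-ascorbate peroxidase, b above a above c. The log2 ratio was 5.03 (SE 1.16).

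In IS22330 ferredoxin-6 held 8, 20 and 10 reads (0.587, 1.42 and 0.710 RPKM) in WW libraries a to c. The DS libraries held 244, 134 and 5 reads (17.9, 9.80 and 0.365 RPKM). Library c was below all WW libraries, and the 2 others were above them. Its log2 ratio was 3.31 (SE 1.08) and 3.86 (SE 0.78) without library c.

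**Figure D2:**
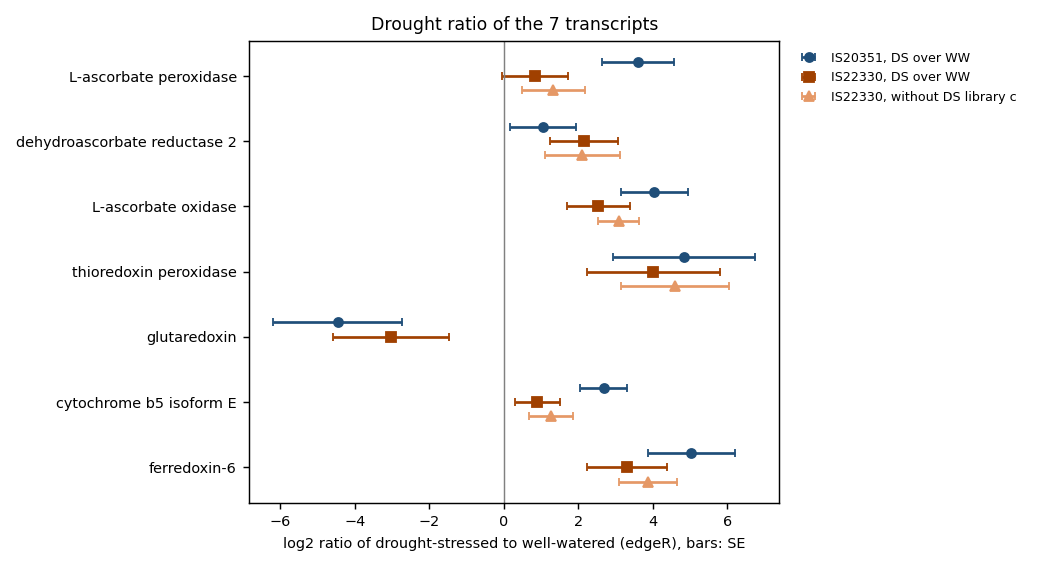
The log2 ratio of DS to WW in each genotype from edgeR, with its SE, and for IS22330 also without DS library c. The ratio is negative for glutaredoxin alone, in both genotypes. The value of glutaredoxin without library c is left out because both remaining DS libraries are at 0.

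Counted together, 5 of the 7 had all DS libraries above all WW libraries in IS20351, 1 (glutaredoxin) had them below and 1 (dehydroascorbate reductase 2) overlapped. Of the 19021 transcripts, 21.5% were separated upwards and 15.2% downwards in that genotype. In IS22330 the count was 1 above (dehydroascorbate reductase 2), 0 below and 6 overlapping, beside 4.93% and 9.13% of all transcripts. Without library c it was 5 above and 1 below, beside 26.0% and 19.9%, and L-ascorbate peroxidase was the one that still overlapped. The 7 were chosen on these ratios, so nothing is read from the counts. The median log2 ratio of the 7 was 3.60 in IS20351 and 2.15 in IS22330, where that of all transcripts tested was 0.03 and 0.01.

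Over the 4 groups, only 2 of the 7 had any neighbours in the order of their means whose libraries did not overlap. For L-ascorbate peroxidase the means ran from 2.23 RPKM in IS20351 WW through 3.24 (SD 2.57) in IS22330 WW and 5.91 (SD 6.47) in IS22330 DS to 30.8 (SD 28.2) in IS20351 DS, and for L-ascorbate oxidase and ferredoxin-6 the groups came in the same order. Dehydroascorbate reductase 2 was lowest in IS22330 WW, at 1.16 RPKM (SD 1.04), and highest in IS22330 DS, at 5.12 (SD 0.965), with both groups of IS20351 between them. Thioredoxin peroxidase was at 0.111 RPKM (SD 0.192) in IS20351 WW and 0.245 (SD 0.316) in IS22330 WW, and the next in order, IS20351 DS at 3.44 (SD 1.65), was apart from the latter. Cytochrome b5 was the other of the 2, with IS20351 WW apart from IS22330 WW.

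The choice of the pathway table used a 4-fold change in one of the genotypes, together with a false discovery rate of at most 0.001 in the study's own test. Only the limit on fold is considered here. On the ratio of the deposited means, the values just inside the 4-fold limit were a log2 ratio of 2.14 for dehydroascorbate reductase 2 in IS22330 and 2.59 for L-ascorbate oxidase in IS22330. Those just outside were 1.06 for dehydroascorbate reductase 2 in IS20351 and 0.93 for cytochrome b5 and 0.87 for L-ascorbate peroxidase in IS22330.

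The difference of the drought responses, IS22330 minus IS20351, also entered this choice and is given as a value. On the log2 scale it was -2.76 (SE 1.28) for L-ascorbate peroxidase, -1.77 (SE 0.86) for cytochrome b5 and -1.73 (SE 1.45) for ferredoxin-6. It was -1.50 (SE 1.14) for L-ascorbate oxidase and -0.83 (SE 2.39) for thioredoxin peroxidase. The sign was opposite for dehydroascorbate reductase 2, at 1.10 (SE 1.25), and for glutaredoxin, at 1.42 (SE 2.16). Without library c it was -2.27 (SE 1.18) for L-ascorbate peroxidase, -1.41 (SE 0.82) for cytochrome b5 and -1.17 (SE 1.06) for ferredoxin-6. It was then -0.96 (SE 0.73) for L-ascorbate oxidase and -0.25 (SE 1.83) for thioredoxin peroxidase, and glutaredoxin, with its remaining DS libraries at 0, turned to a negative value.

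The genotype difference averaged over both water treatments gives DS and WW libraries of a genotype the same weight and so does not use the drought ratios that chose the transcripts. It was tested with edgeR's quasi-likelihood test, with Benjamini-Hochberg adjustment over the 19021 transcripts. Cytochrome b5 isoform E was 3.11-fold higher in IS22330 than in IS20351, a log2 difference of 1.64 (SE 0.44, adjusted p = 0.0354). It was the 1 of the 7 with an adjusted p under 0.05, a level that 5.73% of all transcripts reached with higher and 4.07% with lower values in IS22330. With the same adjustment, none of the 7 had an adjusted p no higher than 0.001 together with a log2 difference of 2 or more in size, which 2.56% of all transcripts passed. The call was lost when any 1 of 8 libraries was left out (IS20351 WW a or c, IS20351 DS a or b, IS22330 WW b or c, IS22330 DS a or b), with an adjusted p of 0.0645 to 0.0919, and the log2 difference stayed between 1.33 and 1.87 over all 12 omissions. Without IS22330 DS library c it was 1.82 (SE 0.41, adjusted p = 0.0153).

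The difference in cytochrome b5 was larger in WW than in DS plants, as values whose difference is the contrast used in the choice. In WW plants the log2 ratio of IS22330 to IS20351 was 2.52 (SE 0.64), and all 3 libraries of IS22330 lay above all 3 of IS20351, as did those of 13.0% of all transcripts, with 9.66% below. In DS plants it was 0.75 (SE 0.60) and the libraries overlapped, and without library c it was 1.11 (SE 0.60), with both remaining IS22330 libraries above those of IS20351, as in 18.1% of all transcripts, with 14.9% below. The 4 group means, from lowest to highest, were 20.0 RPKM (SD 9.31) in IS20351 WW, 119 (SD 75.2) in IS22330 WW, 133 (SD 56.7) in IS20351 DS and 228 (SD 132) in IS22330 DS, n = 3 each. Neighbours in this order from IS22330 WW upwards overlapped.

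For the other 6 transcripts the averaged genotype difference had an adjusted p of 0.501 to 0.942 in the edgeR fit, and none had an unadjusted p under 0.05 with edgeR, DESeq2 or limma on all 12 libraries. The log2 difference was -0.89 (SE 0.63) for L-ascorbate peroxidase, -0.48 (SE 0.62) for dehydroascorbate reductase 2 and 0.13 (SE 0.56) for L-ascorbate oxidase. It was 0.66 (SE 1.21) for thioredoxin peroxidase, 1.20 (SE 1.09) for glutaredoxin and -0.36 (SE 0.73) for ferredoxin-6. Without library c the value was 0.40 (SE 0.36) for L-ascorbate oxidase, -0.09 (SE 0.55) for ferredoxin-6 and 0.96 (SE 0.99) for thioredoxin peroxidase, and glutaredoxin turned to -2.27 (SE 1.42). Without IS22330 DS library a, L-ascorbate peroxidase moved to -1.61 (SE 0.58, edgeR adjusted p = 0.138), and 1 of the 6 then had an unadjusted p under 0.05. Without IS20351 WW library b, thioredoxin peroxidase moved to 3.07 (SE 2.01), with both remaining WW libraries of IS20351 at 0.

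Within DS plants the log2 ratio of IS22330 to IS20351 for L-ascorbate peroxidase was -2.27 (SE 0.92) and -1.78 (SE 0.90) without library c. Its DS libraries of IS22330 nevertheless reached 13.2 RPKM, above the lowest of IS20351 at 6.54. Of the 7 transcripts, 0 had the DS libraries of one genotype apart from those of the other, beside 9.05% of all transcripts above and 10.6% below. In WW plants the only one of the 7 apart was cytochrome b5.

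**Figure D3:**
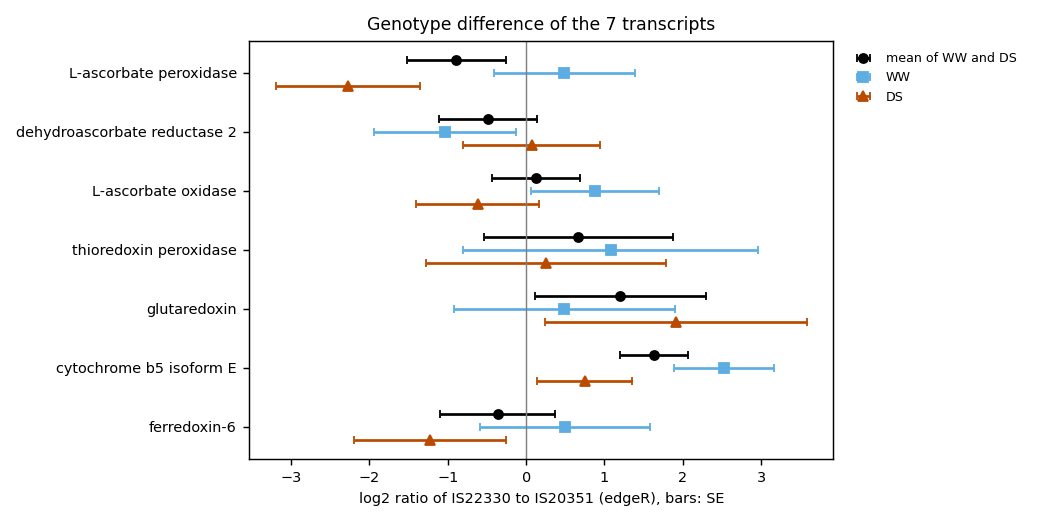
The log2 ratio of IS22330 to IS20351 for each of the 7 transcripts, averaged over water treatments, in WW plants and in DS plants, with the SE from edgeR. Cytochrome b5 isoform E has the only averaged difference with an adjusted p under 0.05.

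The libraries of a group did not vary independently from transcript to transcript. In IS22330 WW plants, library b was the highest of the 3 for 7 of the 7, glutaredoxin included, while it was highest for 31.3% of all transcripts tested. Leaf markers were lowest in the same library, at 1232 RPKM against 2074 and 2346. In IS20351 WW plants library b was highest for 6 of the 7, L-ascorbate oxidase being the exception, beside 41.7% of all transcripts. For the 6 transcripts with higher DS means, library b of IS22330 WW was thus the WW library nearest to the DS mean, and for glutaredoxin it was the farthest from it.

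The DS libraries of IS20351 split the 7 into different orders. L-ascorbate peroxidase and ferredoxin-6 were highest in library b and lowest in library c. Dehydroascorbate reductase 2 and cytochrome b5 were highest in library c and lowest in library b, where thioredoxin peroxidase was lowest too. L-ascorbate oxidase was highest in library a and lowest in library c.

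In IS22330 DS plants library a was the highest of the 3 for 6 of the 7, beside 27.6% of all transcripts tested, and library c the lowest for 5 of the 7. Library c lay within the WW range for 4 (L-ascorbate oxidase, thioredoxin peroxidase, glutaredoxin and cytochrome b5), below it for 2 (L-ascorbate peroxidase and ferredoxin-6) and above it for 1, dehydroascorbate reductase 2. It was lowest for 55.9% of all transcripts tested.

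**Figure D4:**
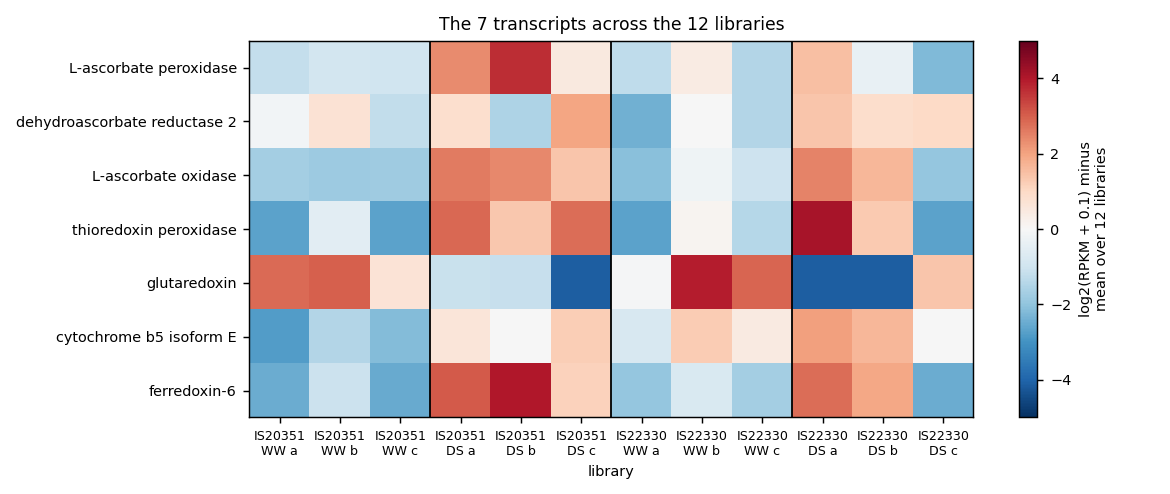
Level of each transcript in each of the 12 libraries, as log2(RPKM + 0.1) minus its mean over the 12, with vertical lines between groups. Library b of IS22330 WW is the highest WW library of that genotype for 7 of 7 transcripts, and library c of IS22330 DS is the lowest DS library of that genotype for 5 of 7.

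As a description over the 12 libraries, which share the 4 groups, Pearson's r of log2(RPKM + 0.1) was highest among the 21 pairs for L-ascorbate oxidase with ferredoxin-6 (0.97), with thioredoxin peroxidase (0.93), and for L-ascorbate peroxidase with ferredoxin-6 (0.91). Dehydroascorbate reductase 2 had its closest relation with thioredoxin peroxidase (0.58) and almost none with L-ascorbate peroxidase (0.10). Glutaredoxin was negatively related to each of the others, from -0.42 with dehydroascorbate reductase 2 to -0.73 with L-ascorbate oxidase.

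Among all transcripts tested, those whose pattern over the 12 libraries was most like each of the 7 were found by the same measure. For L-ascorbate oxidase they were Sb09g022360.1 (r = 0.985) and Sb09g021940.1 (0.979), and for ferredoxin-6 Sb06g023450.1 (0.980) and Sb01g002210.1 (0.971). For thioredoxin peroxidase they were Sb01g035380.1 (0.986) and Sb03g041110.1 (0.979), and for cytochrome b5 Sb07g006380.2 (0.984) and Sb02g027100.1 (0.974). The nearest were less close for L-ascorbate peroxidase (Sb09g004840.1, 0.945, and Sb03g006890.1, 0.942), dehydroascorbate reductase 2 (Sb09g008070.1, 0.940, and Sb05g023560.1, 0.938) and glutaredoxin (Sb08g022480.1, 0.943, and Sb03g031310.1, 0.938). None of the 7 was among the 2 nearest of another. Sb02g027100.1 shared the order of cytochrome b5, with means of 7.40 and 31.8 RPKM in WW plants and 32.5 and 59.2 in DS plants of IS20351 and IS22330.

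The antioxidant block of the study's table holds 13 further transcripts, which the study chose on these samples, so their directions are not independent evidence. Under drought most of them moved opposite to 6 of the 7, glutaredoxin being the exception. This contrast depends on which transcripts of the study's table were placed among the 7. In IS20351, 2 of the 13 had all DS libraries above all WW libraries, 11 had them below and 0 overlapped. In IS22330 it was 0 above, 1 below (the glutaredoxin Sb08g017120.1) and 12 overlapping, and without library c 2 above, 10 below and 1 overlapping (Sb03g014790.1, an electron carrier and disulfide oxidoreductase). The shares of all transcripts, as given above for the 7, were 21.5% above and 15.2% below in IS20351, 4.93% and 9.13% in IS22330, and 26.0% and 19.9% there without library c. The median log2 ratio of the 13 was -3.09 in IS20351, and in IS22330 it was -0.39 with library c and -2.42 without it.

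By class, the 2 that were higher in DS plants were thioredoxins: a thioredoxin family protein (Sb06g023440.1), with a log2 ratio of 2.02 (SE 0.60) in IS20351, and an atypical thioredoxin (Sb01g036620.1), with 2.43 (SE 0.84). The most abundant glutaredoxin family member, Sb03g014800.1, was at 188 RPKM in WW and 27.01 in DS plants of IS20351 (log2 ratio -2.96, SE 0.96), the direction of the glutaredoxin Sb08g017090.1. The other 2 glutaredoxins of the block, Sb08g017120.1 and Sb08g017170.1, had log2 ratios of -2.79 (SE 0.85) and -2.62 (SE 0.88) there. Superoxide dismutase (Sb10g002970.1), which turns superoxide into hydrogen peroxide, was at 32.2 RPKM in WW and 6.31 in DS plants of IS20351 (log2 ratio -2.52, SE 0.90). In IS22330 it was at 17.1 and 12.1 RPKM, a log2 ratio of -0.32 (SE 0.85) with library c and -2.42 (SE 0.62) without it.

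The other ascorbate peroxidase of the block, Sb06g027520.1, was set beside Sb06g001970.1 after the values were seen. In IS20351 WW libraries a to c it was at 219, 81.8 and 156 RPKM, that is 111, 33.8 and 67.5 times the level of Sb06g001970.1 per length. In the DS libraries it was at 6.19, 13.7 and 10.8 RPKM, below Sb06g001970.1 in libraries a and b. In IS22330 it was 12.0 to 52.9 times the level of Sb06g001970.1 in WW libraries, 0.496 times in DS library a, 1.54 times in library b and 115 times in library c. These ratios are for this entry alone. A further entry of the gene, Sb06g027520.2, was at 4.965 to 8.46 RPKM in WW and 0.270 to 1.47 RPKM in DS libraries of IS20351. In IS22330 that entry was at 1.76 to 4.205 RPKM in WW libraries and at 0.120, 0.219 and 3.57 RPKM in DS libraries a to c.

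Peroxiredoxin-5 (Sb04g006270.1) was set beside thioredoxin peroxidase in the same way. It was at 139.5 to 172 RPKM in WW and 6.25 to 23.5 RPKM in DS libraries of IS20351, and remained above thioredoxin peroxidase in all 6. In IS22330 DS library a it was at 5.20 RPKM, below thioredoxin peroxidase at 10.8, and in library c it was at 114 RPKM where thioredoxin peroxidase held no read.

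**Figure D5:**
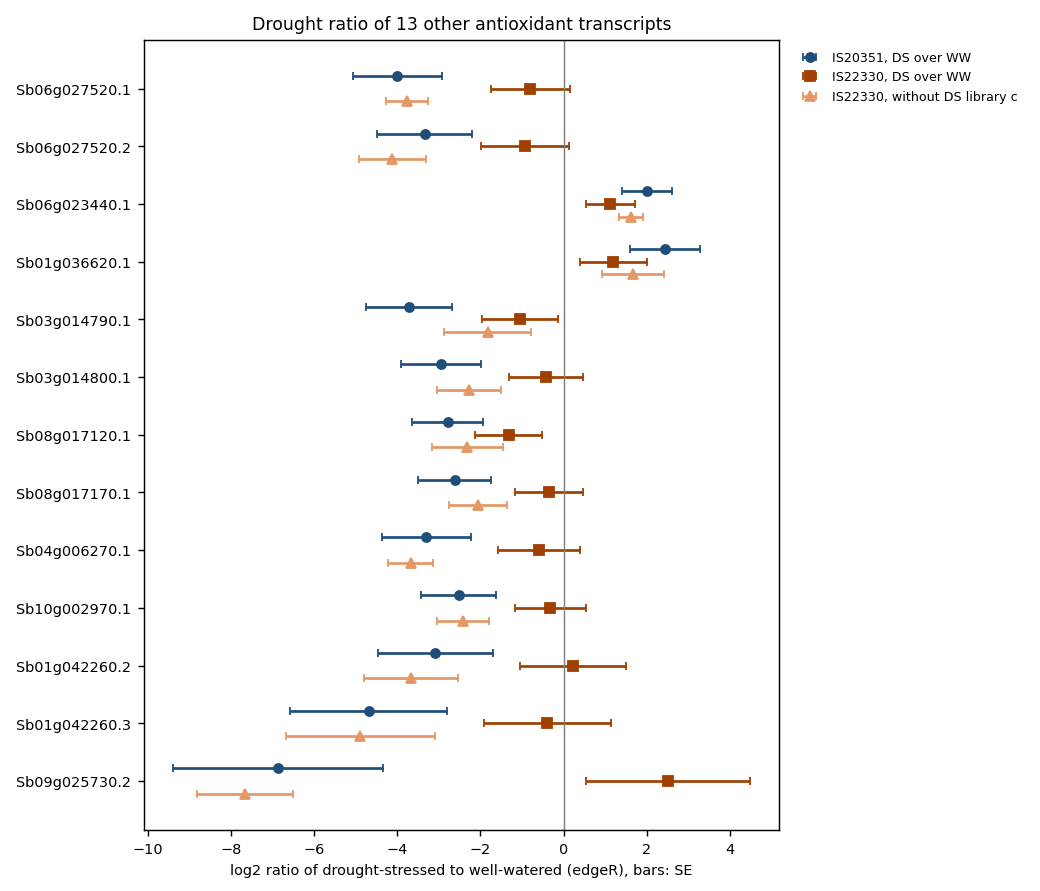
The log2 ratio of DS to WW for 13 other antioxidant transcripts of the study's table, with SE, in IS20351, in IS22330 and in IS22330 without DS library c. In IS20351, 11 of the 13 lie below 0. In IS22330 each of the 13 lies closer to 0 with library c than without it.

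In the averaged genotype difference 0 of the 13 had an adjusted p under 0.05 in the edgeR fit, 3 had an unadjusted p under 0.05, and DESeq2 and limma called 0 as well. The median log2 difference was 0.74 with library c and 0.10 without it, where 6 of the 13 were negative, and that of all transcripts tested was 0.02 with library c. The lowest adjusted p, 0.0765, was that of the oxygen binding protein Sb09g025730.2, whose log2 difference of 5.18 (SE 1.63) became 0.10 (SE 0.66) without library c. Leaving out library c gave 2 calls: the thioredoxin Sb06g023440.1 at 1.03 (SE 0.19, adjusted p = 0.0055) and peroxiredoxin-5 at -1.33 (SE 0.32, adjusted p = 0.0222). Leaving out IS22330 DS library a or b gave 1 call each.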

How the data were processed

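The expected count (unique reads) and the RPKM of each transcript were deposited as means over the 3 libraries of a group. Per its methods, the study aligned cleaned reads to the Ensembl Plants sorghum genome with SOAP2, and RPKM used unique reads, cDNA length and mapped reads. A library without reads had entered as 0.001. The means carry enough digits to solve the whole reads of each library for 27984 of 27989 transcripts; the other 5 were not used, and none is described here. Genome coordinates and sequences were not used here. Reads were fitted as 4 group means of 12 libraries with edgeR 4.0.16 (R 4.3.3, TMM factors) and Benjamini-Hochberg adjustment, where the study used that of Benjamini and Yekutieli, and limma 3.58.1, DESeq2 1.42.0, filters, pseudocounts and left-out libraries were alternatives. The SE is the log2 ratio over the square root of the F statistic. Replicates are those named in the labels, and the p-values and SE use the spread between these libraries. Floors (3 reads) cover counting error only. The edgeR fit was tested on simulated data for the averaged genotype difference. At an adjusted p under 0.05 it found 9 of 50 changes of 2-fold and 42 of 50 of 4-fold. Transcripts with low mean reads were not among those changed. The simulated libraries held no drought change and no library standing apart as IS22330 DS library c does. The rates found therefore need not hold for the 7 transcripts. The 7 transcripts and all lists were chosen with earlier results of these data known. Named transcripts were the 7, their 2 nearest each, the most abundant of each class of the list, and those behind small counts.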

Additional observations from a re-analysis of the deposited data

How the results depend on the processing

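The call of 1 of the 7 transcripts in the averaged genotype difference, cytochrome b5, held under the 7 alternatives of scaling, filter, test and pseudocount, with a log2 difference of 1.51 to 1.65 and an adjusted p of 0.0020 to 0.0490. With each library left out in turn, the count of called transcripts was 0 to 1 and the log2 difference 1.33 to 1.87 (adjusted p 0.0153 to 0.0919). The cause was not tested. Over all transcripts, an adjusted p no higher than 0.001 with a log2 difference of 2 or more passed 486 with edgeR and 904 with DESeq2. Without IS22330 DS library c, chosen after seeing the data, the transcripts of IS22330 with separated DS and WW libraries went from 1 to 6 of the 7 and from 1 to 12 of the other 13, beside 14.1% and 45.8% of all transcripts. The sign of the drought ratio changed in 1 of 140 recomputed values in each genotype. It changed in 4 of 140 for the genotype difference in WW plants, all without IS22330 WW library b, and in 9 of 140 in DS plants. The averaged difference of L-ascorbate oxidase, thioredoxin peroxidase, glutaredoxin, ferredoxin-6 and dehydroascorbate reductase 2 took either sign, without a call. The fit of only the groups compared has no counterpart for the averaged contrast, which uses all groups. No paired analysis was possible because the deposited columns carry no replicate number. With 0 to 20 reads in WW libraries, the ratios of ferredoxin-6 and thioredoxin peroxidase are limited by depth.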

Other observations

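A further transcript of the study's table that is named for ascorbate oxidation, the L-ascorbate oxidase precursor Sb03g039530.1, was looked up after the other values were seen. In IS20351 it was at 0.0641, 3.38 and 0.154 RPKM in WW libraries a to c and at 0.619, 0.910 and 7.18 RPKM in the DS libraries. In IS22330 it was at 0.5004, 3.25 and 9.36 RPKM in WW libraries and at 1.32, 0.402 and 0.755 RPKM in DS libraries. The groups overlapped in both genotypes, and its log2 ratio of DS to WW was 1.29 (SE 1.41) in IS20351 and -2.33 (SE 1.46) in IS22330.

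The ferredoxin-NADP reductase-binding protein Sb02g035610.1 was at 1547 to 2693 RPKM in WW and 105 to 332 RPKM in DS libraries of IS20351, a log2 ratio of -3.50 (SE 1.08), the direction opposite to that of ferredoxin-6. In IS22330 it was at 571 to 1220.0 RPKM in WW libraries and at 138, 129 and 2066 RPKM in DS libraries a to c. The log2 ratio was 0.09 (SE 0.98) with library c and -2.72 (SE 0.61) without it.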
